A study of Mus musculus with 24 samples.

Results

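The 9 genes described here, Fos, Fosb, Fosl2, Jun, Junb, Jund, Batf3, Maff and Mafk, encode AP-1 and small Maf factors, and their chromatin was followed in germinal center (GC) B cells with ATAC-seq, which reads accessible DNA from the sites where Tn5 transposase inserts adapters. Each locus was the gene body of the mm10 GENCODE annotation with 50 kb added on each side, and every consensus peak overlapping it was a member. This gave 108 of the 65483 peaks, and no peak belonged to more than 1 locus. Fos had 13 peaks, Fosb 16, Fosl2 5, Jun 5, Junb 15, Jund 16, Batf3 11, Maff 14 and Mafk 13. All mice carried 1 copy of Cγ1-Cre (Cg1Cre+/-), which is switched on in B cells as they enter the GC reaction, and were 8 weeks old on a C57BL/6J background. The WT group (4 mice) had no floxed allele. The C group (4 mice) was Crebbp fl/+, the K group (4 mice) was Kmt2d fl/+ and the CK group (5 mice) carried both alleles, so that each mutant kept 1 intact copy of the gene it lacked in part. CREBBP is a histone acetyltransferase and KMT2D a histone methyltransferase of enhancers. GC B cells were sorted from the spleen 10 days after immunization with sheep red blood cells (SRBC), after enrichment on beads that bind peanut agglutinin. There was 1 library per mouse. The centroblast and centrocyte libraries of WT mice were not analysed here.

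AP-1 is a dimer of a Fos family and a Jun family protein, which meet through a leucine zipper and bind the TPA response element. FOS, FOSB and FOSL2 cannot pair with themselves and need a Jun partner, JUN, JUNB and JUND can form dimers within their own family, and BATF3 pairs with Jun proteins without a transactivation domain of its own. MAFF and MAFK are small Maf proteins, which share the basic zipper but also lack a transactivation domain and bind the Maf recognition element with partners of the NFE2 and BACH families. Fos, Fosb, Jun and Junb are immediate early genes, induced within minutes of B cell receptor or CD40 signaling, and JUND is made in resting cells too. Because transcription of these genes is set by signaling, an open promoter says that the gene can be read, not how much RNA it makes.

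Between 17483706 and 21857738 fragments per library fell in peaks. In these libraries all 6 GC B cell marker genes (Bcl6, Fas, Mef2b, S1pr2, Cd79a and Pax5) had a peak within 1 kb of their start, and 0 of 4 T cell markers did. Of the other markers, 4 of 4 plasma cell genes, 1 of 4 myeloid genes (Cd14) and 2 of 4 erythroid genes (Klf1 and Hbb-bt) had one. Having such a peak therefore did not tell GC B cells from plasma cells. The summed promoter peaks of the GC B cell markers ranged from 324 to 345 CPM (fragment counts scaled to the size of the library) in WT, 312 to 337 in C, 325 to 339 in K and 314 to 340 in CK. The erythroid sum ranged from 63.7 to 69.0 CPM in WT, 51.7 to 61.4 in C, 54.2 to 71.0 in K and 55.4 to 60.5 in CK. It was Hbb-bt, a beta globin gene, that moved with genotype in the erythroid list, with 20.3 ± 1.3 CPM (SD) over 4 WT mice, 9.34 ± 1.6 over 4 C mice and 9.70 ± 0.77 over 5 CK mice, and the K mice stood at 17.4, 17.7, 9.84 and 9.14 CPM. The plasma cell sum ranged from 214 to 231 CPM in WT, 213 to 230 in C, 228 to 244 in K and 225 to 238 in CK, and the myeloid sum from 4.15 to 6.77 CPM over all mice. The part of these genes in the results was not tested, and in bulk cells a smaller share of cells with an open site cannot be told apart from less opening per cell. The mice are described as female in the study, but the promoters of 4 Y-linked genes held 56.5 to 62.2 CPM in 9 of the 17 libraries (2 of 4 WT, 2 of 4 C, 3 of 4 K and 2 of 5 CK) and at most 1 fragment in the other 8, so values within each class of mice are given beside the results that passed the test.

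Sequences are shown for the sites that the results below turn on, all from the GRCm38 (mm10) genome. The first is the 250 bases before the start of Batf3, the promoter that gained accessibility in CK, and the second is the centre of the Mafk-locus peak called in K, with its AP-1 site in capitals. The last pair holds the 250 bases before Jund and before Mafk, chosen after their values were seen because they carry a cAMP response element (CRE) and a Maf core site, both in capitals.
Batf3, chr1:191097597-191097846, plus strand: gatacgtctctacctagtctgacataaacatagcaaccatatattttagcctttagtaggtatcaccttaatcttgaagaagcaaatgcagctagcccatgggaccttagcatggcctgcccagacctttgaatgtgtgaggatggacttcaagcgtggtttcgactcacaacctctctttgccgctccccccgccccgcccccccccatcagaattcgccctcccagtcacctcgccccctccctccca
Mafk-locus peak, chr5:139781306-139781605, plus strand: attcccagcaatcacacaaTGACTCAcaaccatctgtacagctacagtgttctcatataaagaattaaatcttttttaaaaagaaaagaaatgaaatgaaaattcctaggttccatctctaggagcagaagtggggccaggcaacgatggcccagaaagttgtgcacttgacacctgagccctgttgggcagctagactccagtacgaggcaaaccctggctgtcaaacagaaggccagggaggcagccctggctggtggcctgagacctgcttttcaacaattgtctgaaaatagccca
Jund, chr8:70698699-70698948, plus strand: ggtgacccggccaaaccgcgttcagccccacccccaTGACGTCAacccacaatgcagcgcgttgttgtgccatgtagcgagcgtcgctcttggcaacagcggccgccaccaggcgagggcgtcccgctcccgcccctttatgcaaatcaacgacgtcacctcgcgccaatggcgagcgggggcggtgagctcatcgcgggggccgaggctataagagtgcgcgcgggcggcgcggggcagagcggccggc
Mafk, chr5:139791263-139791512, plus strand: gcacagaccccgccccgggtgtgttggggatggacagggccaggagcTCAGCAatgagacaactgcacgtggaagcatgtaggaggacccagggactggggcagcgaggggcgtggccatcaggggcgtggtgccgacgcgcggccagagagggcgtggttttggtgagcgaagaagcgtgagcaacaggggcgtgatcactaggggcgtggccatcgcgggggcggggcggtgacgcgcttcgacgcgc

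Accessible sites were laid out differently around the 9 genes. At Fos, 12 of 13 peaks had the Fos start as the nearest protein-coding gene start. At Junb only 1 of 15 peaks and at Jund only 2 of 16 did, since both genes lie among closely spaced neighbours. Over all loci, the nearest start was that of the named gene for 40 peaks and of another gene for 68, and 21 peaks lay within 1 kb of the start of another gene. By position, 30 of the 108 peaks (27.8%, against 17.9% of all peaks) were at a gene start, 27 overlapped an exon, 9 an intron and 42 were intergenic. The member peaks were longer than the average peak (median 1052.5 bp against 910 bp) and richer in GC (54.0% against 48.2%).

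**Figure D1:**
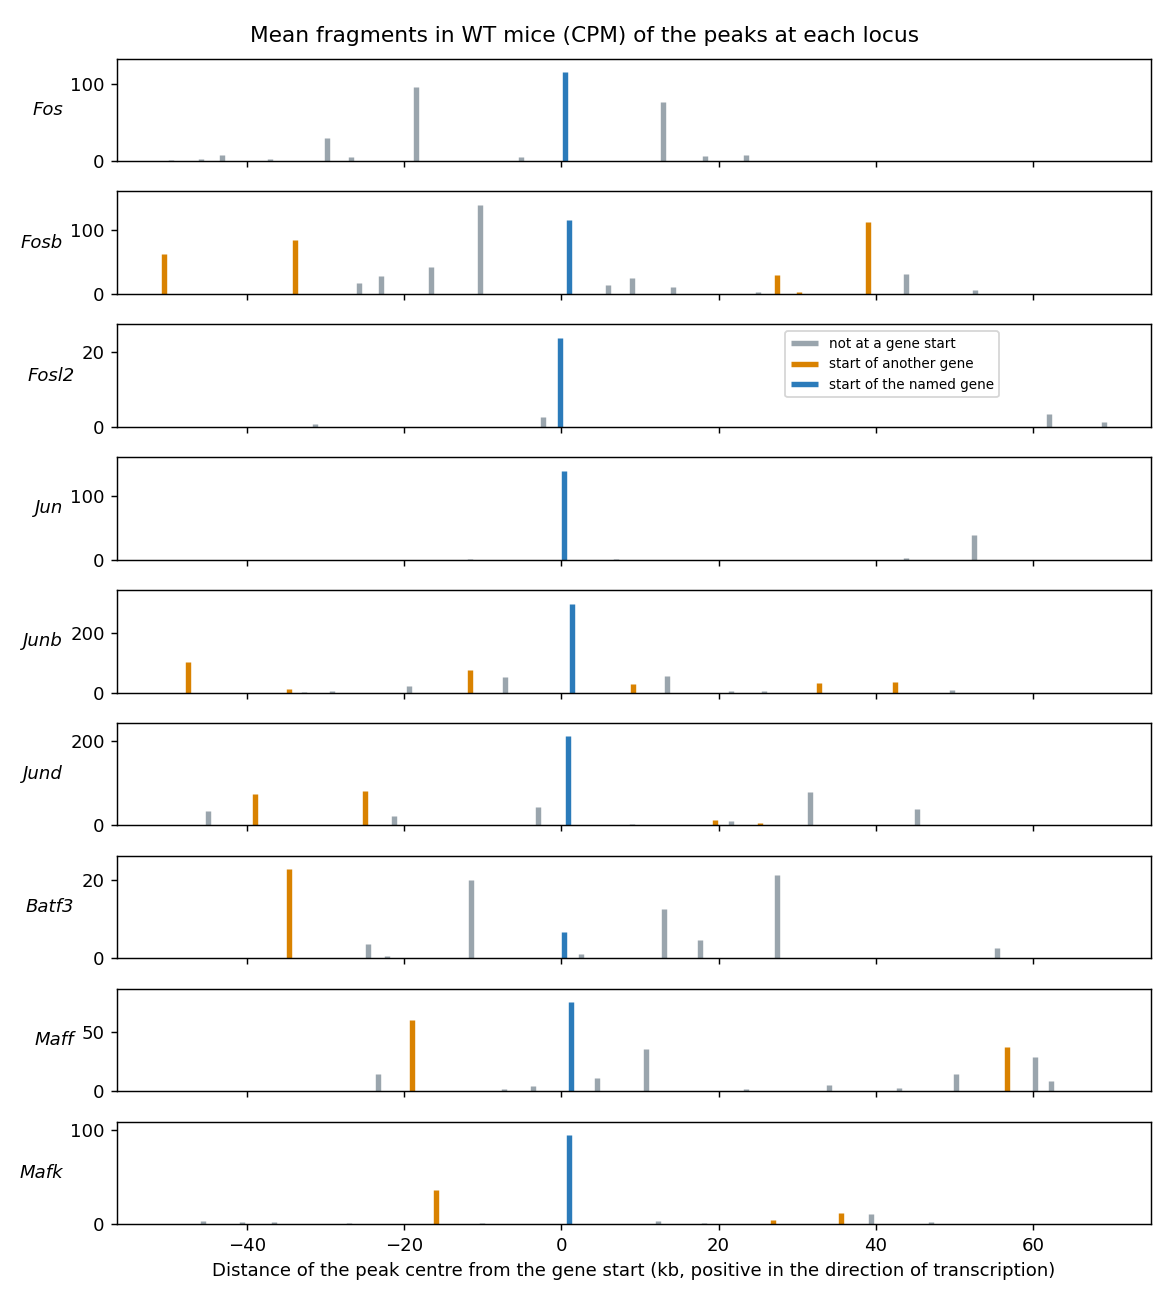
Mean accessibility in WT mice (CPM, vertical axis, 1 scale per panel) of each peak at the 9 loci against the distance of its centre from the gene start in kb, with colors for peaks at the start of the named gene, at the start of another gene, and elsewhere. The peak at or within 1 kb of the named gene's own start was the tallest of its locus except at Fosb and Batf3.

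How much of a locus's signal lay in the promoter peak differed between genes. The promoter held 77.0% of the fragments of the locus at Jun, 75.7% at Fosl2 and 53.0% at Mafk, but 16.2% at Fosb and 7.90% at Batf3, where it was the fifth strongest of 11 peaks. At Fosb the strongest site was an intergenic peak 10.4 kb upstream of the start (chr7:19318828-19321976), at 140 ± 11 CPM (SD) over the 4 WT mice, and the promoter was at 116 ± 11. Fos, by contrast, had its promoter at 115 ± 2.5 CPM and flanking intergenic peaks 18.5 kb upstream (chr12:85454798-85456015), at 95.5 ± 1.5 CPM, and 13 kb downstream of the start (chr12:85485577-85488165), at 76.3 ± 2.4 CPM, each over 4 WT mice. None of the 3 Fos sites passed the test in a mutant. They differed from WT by log2 fold changes between -0.10 and 0.11 in C, K and CK, with adjusted p from 0.31 to 1.00.

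Exact matches to 3 motifs were searched on both strands. The AP-1 site TGACTCA was present in the central 300 bases of 5 of 108 peaks (4.63%) against 5.98% of all peaks. The CRE, TGACGTCA, was present in 1 peak (0.926% against 0.623%), at the Jund locus, and the Maf core site TGCTGA, which can overlap an AP-1 site, in 26 (24.1% against 21.6%). Among RefSeq promoters of GRCm38.p6, which run from 250 bases before to 50 after the start, all 9 genes were found, in 11 entries. None of the 11 held the AP-1 site, against 5.20% of the 32851 promoters. Maff held the CRE (1.79% of all) and Mafk the Maf core site (19.5% of all). The Jund element printed above lies before the GENCODE start and outside the RefSeq entry. For Maff, the 250 bases before the GENCODE start held no CRE. Matches are letters only, and no match says nothing of the factor.

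In WT mice, Jund had the most open promoter per length and Batf3 the least. Mean accessibility of the promoter peak, in CPM per kb of peak over 4 WT mice, was 67.9 ± 5.6 (SD) for Jund (gene ENSMUSG00000071076, chr8:70698949-70700616). Maff (chr15:79346621-79359076) followed with 51.5 ± 4.7, Junb (chr8:84974484-84978718) with 48.9 ± 1.5 and Jun (chr4:95049034-95052222) with 39.3 ± 2.7. Fosb (chr7:19302696-19310051) stood at 36.7 ± 3.5, Mafk (chr5:139791513-139802653) at 32 ± 1.8 and Fos (chr12:85473890-85477273) at 26.0 ± 0.57. Fosl2 (chr5:32135801-32157842) was lower, at 9.94 ± 1.5, and Batf3 (chr1:191097847-191108945) lowest, at 2.92 ± 0.22. Among all 11626 promoter peaks, Jund lay at the percentile 97.4, Maff at 91.1 and Junb at 89.0, while Fosl2 lay at 25.2 and Batf3 at 11. The ranges of the 4 mice overlapped between Maff and Junb, between Jun and Fosb and between Fosb and Mafk. They did not overlap at the other steps of this order.

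Of the 9 promoters, 0 passed the test in C, 0 in K, and 1, Batf3, gained accessibility in CK. A peak was called a differentially accessible peak (DAP) at an adjusted p below 0.01, where edgeR's quasi-likelihood test was fitted on the 17 libraries together with TMM normalization and adjusted over all 65483 peaks. Of all promoter peaks, 0.129% were called in C, 2.05% in K and 10.6% in CK, so 1 of 9 in CK was close to the background. At an unadjusted p under 0.05, 0 of 9 promoters passed in C, 4 in K and 2 in CK. Of all promoter peaks 8.26%, 26.5% and 35.1% did. Relative to WT, 7 of 9 promoters were lower in C, with log2 fold changes from -0.06 to 0.18, while 9 of 9 were higher in K (0.02 to 0.26) and 9 of 9 in CK (0.02 to 0.37). These shifts were close to those of promoters at large: the median was 0.08 in K against 0.06 over all promoter peaks, and 0.07 in CK against 0.06, and 75.5% and 71.9% of all promoter peaks were also higher. In C, 57.8% of all promoter peaks were lower. The directions depended on the scaling. With total counts 5 of 9 promoters were lower in C (42.4% of all promoter peaks), and with loess offsets 1 of 9 (42% of all). With offsets set by bins of GC content, 6 of 9 were lower in K (54% of all) and 8 of 9 in CK (60% of all).

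**Figure D2:**
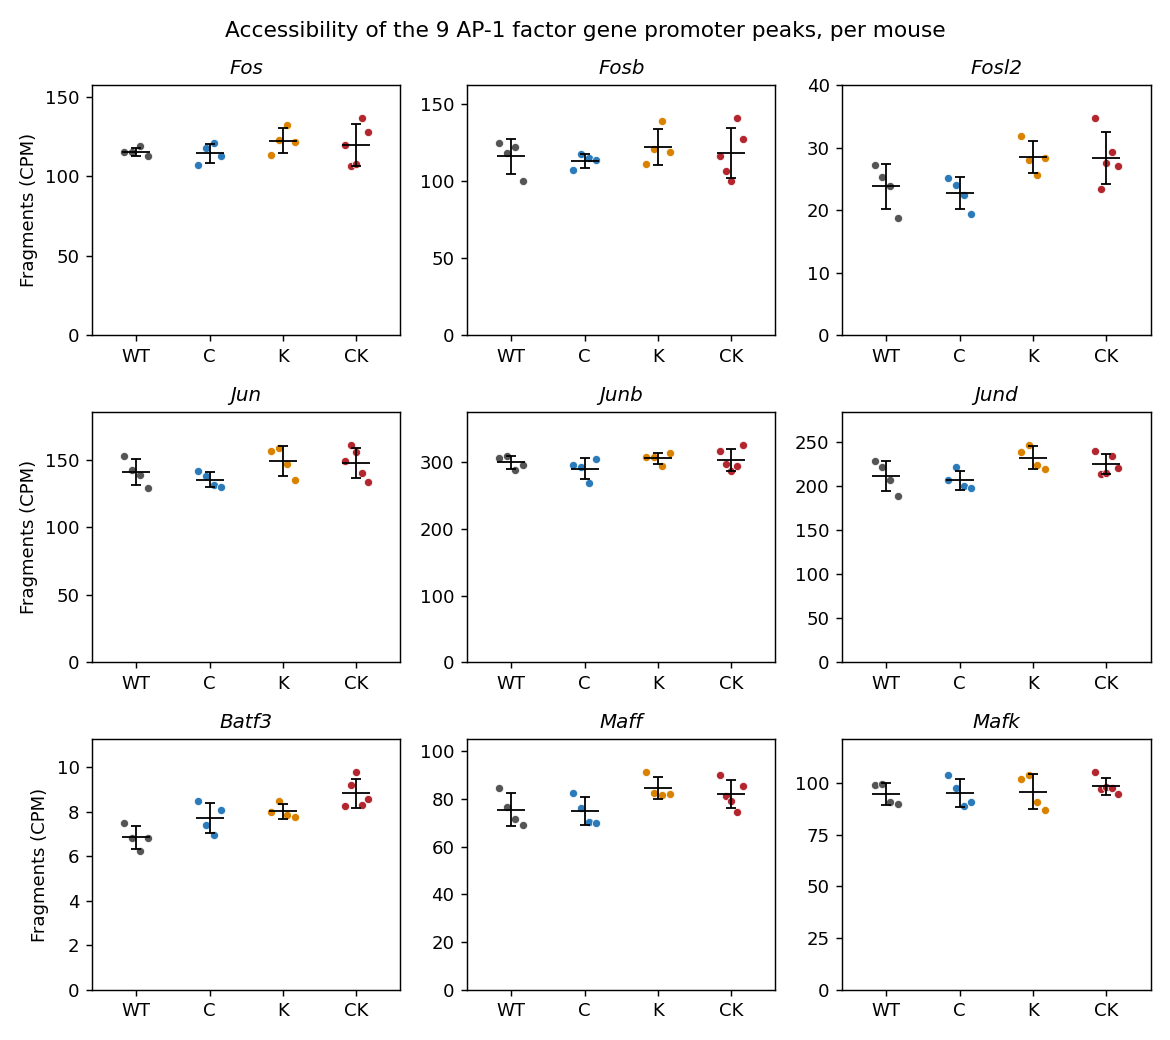
Accessibility of the 9 promoter peaks in CPM (vertical axis, from 0, 1 scale per panel) in each WT, C, K and CK mouse (points), with the mean and SD (bars). Batf3 is the only panel in which all CK mice, at 8.27 to 9.80 CPM, lie above all WT mice, at 6.23 to 7.50 CPM.

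Batf3, which encodes the zipper factor best known for the development of cross-presenting dendritic cells, had its promoter peak at chr1:191097064-191099410. Accessibility was 7.50, 6.84, 6.23 and 6.81 CPM in WT mice, 8.5, 7.40, 6.98 and 8.07 in C mice, 8.01, 8.49, 7.85 and 7.75 in K mice, and 8.27, 9.21, 9.80, 8.32 and 8.58 in CK mice. All CK mice and all K mice were above all WT mice, and C overlapped WT. In CK the peak rose 1.29-fold, a log2 fold change of 0.37 ± 0.095 (SE, 95% CI 0.17 to 0.56) with an adjusted p of 0.00945. The log2 fold change was 0.18 ± 0.10 in C (adjusted p = 0.641) and 0.23 ± 0.10 in K (adjusted p = 0.188), and the differences of CK from C (0.19, adjusted p = 0.233), from K (0.14, adjusted p = 0.813) and from C plus K (-0.04, 95% CI -0.32 to 0.24, adjusted p = 1.00) did not pass the test. The peak held a mean of 155 fragments per library. The call rested on little margin. It was lost when any mouse other than WT replicate 1 or C replicate 3 was left out, and over all 17 mice left out in turn the log2 fold change ran from 0.33 to 0.42 and the adjusted p from 0.00819 to 0.0424. With GC content bins the log2 fold change was 0.21 (adjusted p = 0.140), and with only CK and WT in the fit it was 0.37 (adjusted p = 0.0217). Among mice with Y-linked signal the mean was 8.29 CPM in 2 CK and 7.17 in 2 WT mice, and among those without it 9.20 in 3 CK and 6.52 in 2 WT mice.

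Fos and Fosb, the inducible Fos family genes, had no promoter call in any mutant. The Fos promoter peak (chr12:85472182-85476621) was at 115, 115, 119 and 113 CPM in WT mice, 107, 117, 121 and 113 in C mice, 113, 123, 132 and 122 in K mice, and 119, 106, 108, 137 and 127 in CK mice. The CK mice spread on both sides of WT, which was tight, and the log2 fold change in CK was 0.05 (95% CI -0.07 to 0.17, adjusted p = 0.636). At Fosb (chr7:19307439-19310613) the mice stood at 125, 118, 122 and 100 CPM in WT mice, 107, 118, 115 and 114 in C mice, 111, 121, 139 and 119 in K mice, and 117, 107, 101, 141 and 128 in CK mice. Every mutant group overlapped WT, with a log2 fold change of 0.03 in CK (95% CI -0.13 to 0.19, adjusted p = 0.871). The same mice were high at both genes, K replicate 3 in the K group and CK replicates 4 and 5 in the CK group. Over the 17 mice, log2 CPM of the Fos and Fosb promoters had a Pearson r of 0.89, the highest of the 36 pairs of member promoters, whose median was 0.42 and lowest -0.24 (Fos with Jun). All points of these correlations share their libraries and normalization.

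Fosl2, a Fos family gene with slower and more lasting induction, moved most among the other Fos and Jun genes without passing the test. Its promoter peak (chr5:32134460-32136853) was at 27.3, 25.3, 23.9 and 18.8 CPM in WT mice, 25.2, 24.0, 22.4 and 19.4 in C mice, 31.8, 28.1, 25.6 and 28.4 in K mice, and 34.8, 23.3, 27.5, 29.3 and 27.0 in CK mice. K and CK lay mostly above WT and both overlapped it. The log2 fold change was 0.26 ± 0.11 in K (SE, adjusted p = 0.165) and 0.25 ± 0.10 in CK (adjusted p = 0.0932), and -0.05 in CK with GC content bins (adjusted p = 0.741). A weak intergenic peak 2.35 kb upstream of the start (chr5:32133120-32133789) was at 2.98, 3.03, 2.48 and 1.55 CPM in WT and 4.38, 3.23, 3.55, 3.29 and 4.32 in CK, with no overlap between the groups. It missed the threshold in CK (log2 fold change 0.57 ± 0.16, adjusted p = 0.0178) and in K (0.60 ± 0.17, adjusted p = 0.0392).

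Jun, Junb and Jund, the Jun family genes, did not pass the test at their promoters in any of the comparisons. The Jun promoter (chr4:95050048-95053628) was at 152, 142, 139 and 129 CPM in WT mice, 142, 138, 131 and 130 in C mice, 156, 159, 147 and 135 in K mice, and 149, 161, 156, 140 and 133 in CK mice. All groups overlapped, and the log2 fold change in CK was 0.07 (95% CI -0.04 to 0.19, adjusted p = 0.436). Junb had the strongest promoter peak by total fragments (chr8:84974361-84980490), a broad peak of 6130 bp, at 306, 309, 288 and 296 CPM in WT mice, 296, 292, 269 and 305 in C mice, 308, 308, 294 and 313 in K mice, and 316, 297, 287, 294 and 326 in CK mice. Under TMM it had the narrowest 95% CI of the 9 in CK, from -0.07 to 0.11 around a log2 fold change of 0.02 (adjusted p = 0.804). That interval does not cover the choice of normalization. With GC content bins the Junb value was -0.09 (adjusted p = 0.145). The Jund promoter (chr8:70698237-70701352) was at 229, 221, 207 and 189 CPM in WT mice, 207, 221, 201 and 197 in C mice, 239, 247, 225 and 219 in K mice, and 240, 214, 215, 234 and 221 in CK mice. K and CK lay toward the upper end of WT, with log2 fold changes of 0.14 ± 0.054 in K (SE, adjusted p = 0.141) and 0.09 ± 0.051 in CK (adjusted p = 0.267). With GC content bins the Jund promoter was called lower in CK instead (-0.22, adjusted p = 0.000315).

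Maff and Mafk, the small Maf genes, had no promoter call either. The Maff promoter peak begins 457 bp downstream of the GENCODE start and does not cover it. The Maff promoter (chr15:79347078-79348545) was at 84.7, 76.7, 71.6 and 69.2 CPM in WT mice, 82.5, 76.2, 70.6 and 69.9 in C mice, 91.4, 82.7, 81.9 and 82.1 in K mice, and 90.0, 81.2, 79.0, 74.4 and 85.3 in CK mice. The K and CK mice were shifted upward but overlapped WT, with log2 fold changes of 0.16 ± 0.065 in K (SE, adjusted p = 0.144) and 0.12 ± 0.061 in CK (adjusted p = 0.206), and the CK value changed sign and was called with GC content bins (-0.19, adjusted p = 0.00755). The Mafk promoter (chr5:139791056-139794017) was at 98.9, 99.6, 90.7 and 89.8 CPM in WT mice, 104, 97.7, 89.0 and 90.7 in C mice, 102, 104, 90.6 and 87.1 in K mice, and 105, 97.3, 97.9, 97.4 and 94.5 in CK mice. Its groups overlapped throughout, with a log2 fold change of 0.06 in CK (95% CI -0.06 to 0.17, adjusted p = 0.543).

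**Figure D3:**
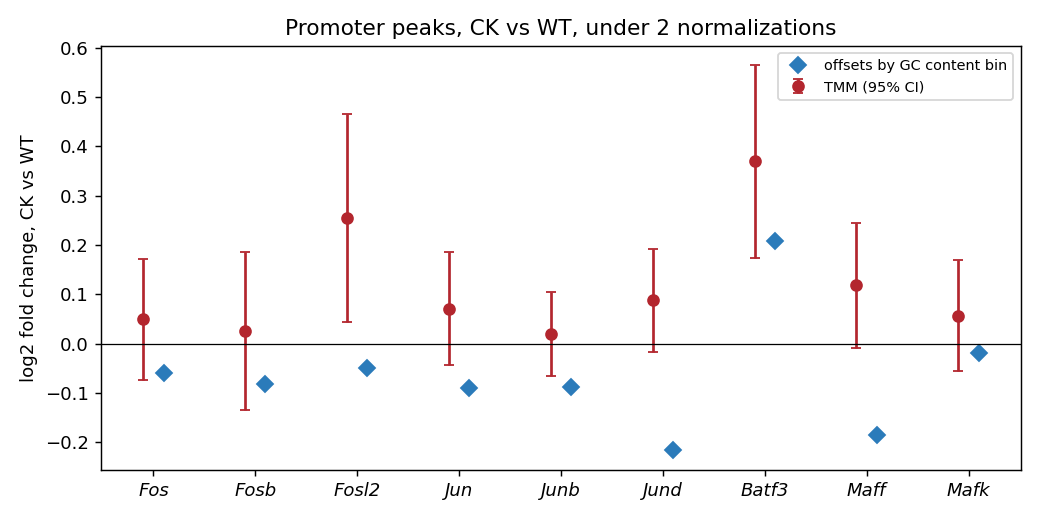
Log2 fold changes of the 9 promoter peaks in CK against WT (vertical axis) after TMM normalization (circles, bars are 95% CI) and with offsets by bins of GC content (diamonds). All 9 circles lie above 0, and 8 of the 9 diamonds lie below it.

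Counted over all 108 peaks, the AP-1 factor loci held 0 DAPs in C, 1 in K and 2 in CK. Over all peaks 0.16% were called in C and 1.48% in K, made up of 0.647% with a gain and 0.828% with a loss. In CK 6.84% of all peaks were called, 3.54% with a gain and 3.3% with a loss, and the member shares were 0%, 0.926% and 1.85%. The single DAP of the K mice rose, and of those in CK 1 rose and 1 fell. With no adjustment, at p under 0.05, 3 member peaks passed for C, 21 for K and 19 for CK, or 2.78%, 19.4% and 17.6% against 8.9%, 20.6% and 28.9% of all peaks. The members' median log2 fold change was -0.01 for C, 0.04 for K and 0.03 for CK, and the median of all peaks was 0.00 each time. The mice of the mutant and WT groups did not overlap at 2 peaks for C, 11 for K and 8 for CK (1.85%, 10.2% and 7.41%), against 5.66%, 11.3% and 13% of all peaks. Offsets by GC content bins changed the picture in CK to 0 gained and 7 lost of the 108, where 7.51% of all peaks were called. The Jund and Maff promoters were among the 7. The lowest adjusted p was at the start of Vasp in the Fosb window (log2 fold change -0.29, adjusted p = 1.07e-05). With these offsets 29.3% of all CK DAPs were gained against 51.8% under TMM. In K they gave 1 gained and 1 lost, where 1.75% of all peaks were called. Of all K DAPs 23.1% were gained against 43.9%.

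**Figure D4:**
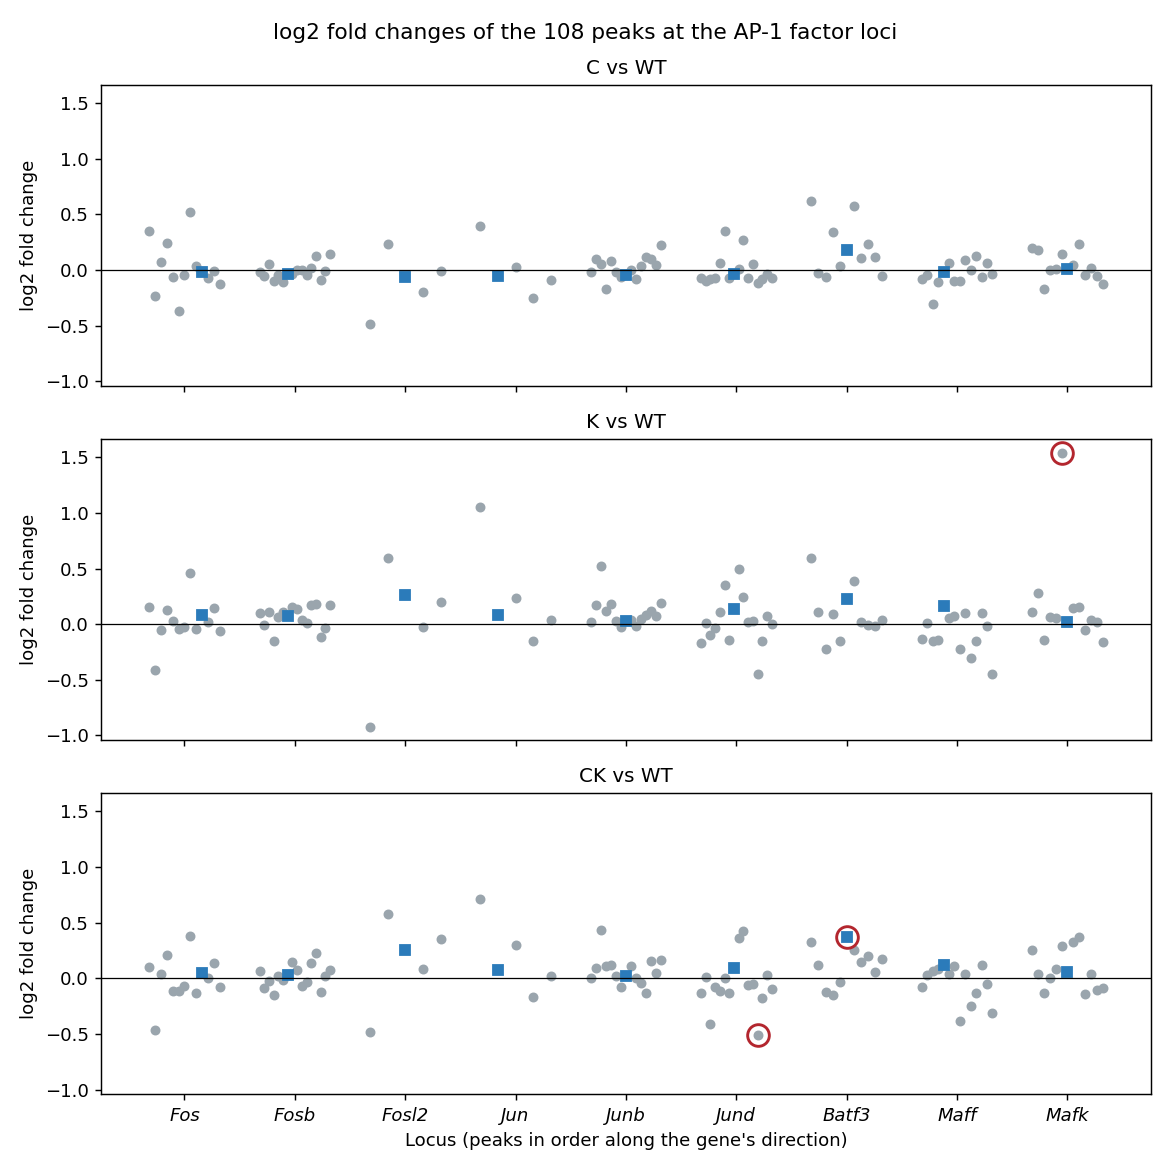
Log2 fold changes (vertical axis) of the 108 peaks at the 9 loci in C, K and CK against WT, with peaks ordered along each gene's direction, squares for the gene's own promoter and red rings for DAPs. There is no ring in C, 1 in K at the Mafk locus, and 2 in CK, at Jund (lost) and Batf3 (gained).

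No member peak passed the test when mutants were compared with each other. There were 0 DAPs among the 108 peaks for CK against C, for CK against K, for K against C, and for CK against both single changes added together, where 1.68%, 0.00916%, 0.788% and 0.0107% of all peaks were called. At an unadjusted p under 0.05 the numbers were 17, 3, 23 and 4, or 15.7%, 2.78%, 21.3% and 3.70% of the members against 21.2%, 7.35%, 17.9% and 3.73% of all peaks. No DESeq2 test called a member peak in these comparisons either. The lowest adjusted p was 0.0567 for CK against C, 0.192 for CK against K, 0.0194 for K against C and 1.00 for the added changes. Comparisons with the same group of mice are not independent.

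The peak with the lowest adjusted p in CK lay inside the Jund window but at the start of Pde4c, a cAMP phosphodiesterase gene, 25.2 kb downstream of the Jund start (chr8:70723444-70724920). Accessibility was 6.28, 6.37, 5.11 and 6.42 CPM in WT mice, 6.09, 5.23, 4.80 and 6.11 in C mice, 4.56, 3.96, 3.66 and 5.44 in K mice, and 4.14, 3.82, 3.64, 4.63 and 4.96 in CK mice. All CK mice were below all WT mice. The log2 fold change was -0.51 ± 0.13 in CK (SE, 95% CI -0.78 to -0.25, adjusted p = 0.00813), -0.45 ± 0.13 in K (adjusted p = 0.0523) and -0.12 ± 0.13 in C (adjusted p = 0.852), from a mean of 99 fragments per library. The call was lost without WT replicate 1, 2 or 4 or without CK replicate 1, 2, 3 or 4 (log2 fold change -0.55 to -0.46, adjusted p up to 0.0326). It held with GC content bins (-0.59, adjusted p = 0.0026) and was lost with loess offsets (-0.51, adjusted p = 0.0105). Among mice with Y-linked signal the mean was 4.38 CPM in CK and 6.32 in WT, and among those without it 4.14 and 5.77.

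The next peak of Pde4c fell just outside the threshold. It lies 6.05 kb inside the gene over an exon (chr8:70729771-70731505) and was deeper, with a mean of 1468 fragments per library. The WT mice were at 80.5, 81.7, 77.1 and 82.1 CPM and the CK mice at 73.5, 70.3, 67.6, 71.6 and 72.9, again without overlap. The log2 fold change was -0.17 ± 0.045 (SE, adjusted p = 0.0104). Beyond it came the Fosl2 peak described above and, at an adjusted p of 0.0483 and 0.0485, peaks at the starts of Rtbdn in the Junb window (log2 fold change 0.16) and of Vasp in the Fosb window (-0.12).

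The only DAP in K was a weak intergenic peak 10.1 kb upstream of Mafk (chr5:139780854-139782056), 5180 bp from the nearest protein-coding start, that of Ints1, a subunit of the Integrator complex. The K mice were at 7.43, 7.42, 2.15 and 1.80 CPM, against 1.49, 1.78, 1.69 and 1.38 in WT, 2.12, 1.80, 1.26 and 1.81 in C, and 2.71, 2.05, 1.66, 1.99 and 1.27 in CK. K replicates 1 and 2 stood apart from every other mouse, while K replicates 3 and 4 lay among the remaining mice, which ranged with them from 1.26 to 2.71 CPM. The log2 fold change in K was 1.54 ± 0.34 (SE, 95% CI 0.84 to 2.24, adjusted p = 0.00919), and 0.29 ± 0.36 in CK (adjusted p = 0.651). The peak held a mean of 48 fragments per library. The call was kept only without C replicate 3, K replicate 3, K replicate 4, CK replicate 1 or CK replicate 5, and was lost without any other mouse (log2 fold change 1.22 without K replicate 1, highest adjusted p 0.0603). Loess offsets (adjusted p = 0.0105) and a fit of only K and WT (adjusted p = 0.0208) also lost it. K replicate 1 has Y-linked signal and K replicate 2 does not. Among mice with that signal the mean was 3.79 CPM in 3 K and 1.63 in 2 WT mice, and without it 7.42 CPM in the 1 K mouse and 1.54 in 2 WT mice. A search made after these values were seen found 5 of 65483 peaks at which K replicates 1 and 2 were above 2 CPM and over 2 times the highest of the other 15 mice, this one and 4 on chromosome 14. The same 2 mice were the high ones of the K group at Hbb-bt, and a link between these values was not tested.

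**Figure D5:**
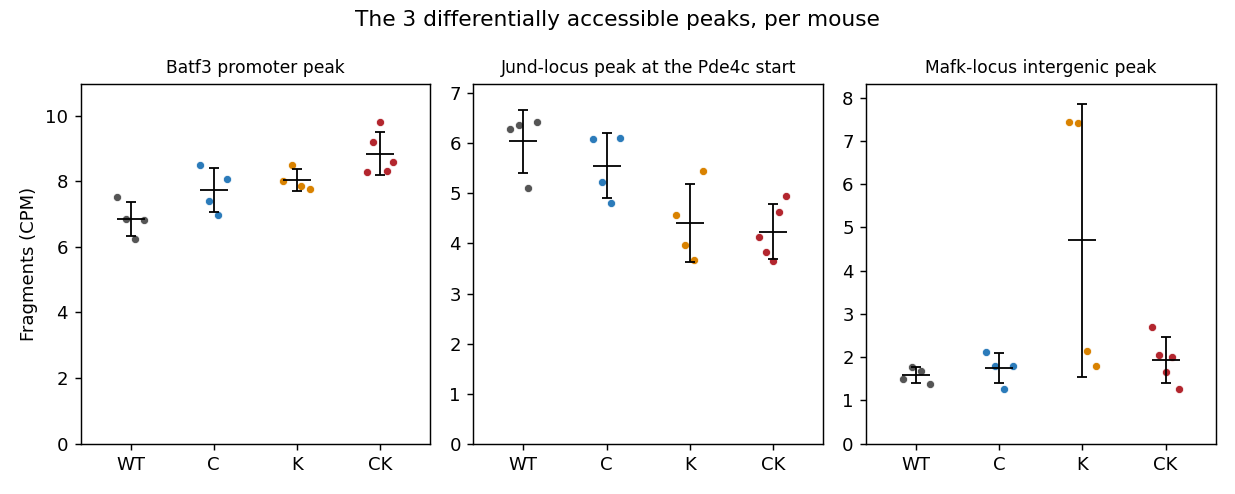
Accessibility in CPM (vertical axis, from 0) of the 3 DAPs of the AP-1 factor loci in each WT, C, K and CK mouse (points) with the mean and SD (bars). At the Mafk-locus peak 2 of 4 K mice, at 7.43 and 7.42 CPM, account for the K mean, and the other 2 are at 2.15 and 1.80 CPM.

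Summed over whole windows, no locus was called. Among all 18082 gene windows 0.426% were called for C, 2.71% for K and 11.6% for CK, and 0 of the 9 members each time. At an unadjusted p under 0.05, 0 windows passed in C, 1 in K and 2 in CK (Fosl2 and Batf3). Of all windows 9.96%, 26.9% and 36.4% did. DESeq2 called 0 of 9 in each as well. The log2 fold changes of the 9 sums ran from -0.06 to 0.08 for C, from 0.01 to 0.24 for K, and from -0.03 to 0.26 for CK. The largest was Fosl2, whose 5 peaks summed to 35.4, 33.3, 31.7 and 25.5 CPM in WT and 44.6, 32, 38.1, 38.1 and 35.3 in CK. The groups overlapped, and the log2 fold change was 0.26 ± 0.092 (SE, adjusted p = 0.0463). Under TMM the deep windows had narrow intervals, which do not cover the choice of normalization. With GC content bins 1 of the 9 windows was called in CK, where 4919 of all 18082 windows were. Junb, with a mean of 14580 fragments per library, averaged 736 ± 15 CPM (SD) over 4 WT mice and 750 ± 23 over 5 CK mice, a log2 fold change of 0.03 (95% CI -0.03 to 0.09, adjusted p = 0.509). Fosb gave 729 ± 30 and 722 ± 42 CPM (-0.01, 95% CI -0.09 to 0.06, adjusted p = 0.827), and Jund gave 628 ± 22 and 615 ± 24 CPM (-0.03, 95% CI -0.10 to 0.04, adjusted p = 0.529).

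The wider network of these factors was read from promoter peaks. Of 16 other AP-1 and related zipper genes (Fosl1, Batf, Batf2, Jdp2, Atf3, Atf2, Atf7, Maf, Mafa, Mafg, Bach1, Bach2, Nfe2, Nfe2l1, Nfe2l2 and Nfe2l3), 15 had a promoter peak and Atf3 had none. Of these promoter peaks 0 were called in any mutant, and their median log2 fold change was -0.02 for C, 0.07 for K and 0.06 for CK. Of 16 kinase and factor genes upstream of AP-1, among them Elk1, Srf, Mapk8 and Map2k4, all had a promoter peak and 0 were called in any mutant, with a median log2 fold change of 0.07 in CK. All 15 other immediate early genes, among them Egr1, Nr4a1, Dusp1 and Myc, had one too, with 0 called against WT and a median of 0.01 in CK. Of all promoter peaks 0.129% were called in C, 2.05% in K and 10.6% in CK. Their median log2 fold changes were -0.01, 0.06 and 0.06. The Klf4 promoter missed the threshold in CK against WT (log2 fold change 0.23, adjusted p = 0.0110). It passed in CK against C (0.34, adjusted p = 0.00175), where 1.68% of all peaks were called. By likeness to the members, the promoter peaks of Slc7a5, Ncoa5 and Ubxn2a had the highest Pearson r over the 17 mice with the mean log2 CPM of the 9 member promoters (0.94, 0.94 and 0.93), among 11337 promoter peaks more than 1 Mb away whose median r was 0.46.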

How the data were processed

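The authors processed the reads with the nf-core ATAC-seq pipeline (version 1.2.1), aligned them to mm10, and deposited raw counts of fragments per consensus peak from featureCounts 2.0.1, without normalization. A fragment could count for more than 1 peak if it overlapped it by 0.2 of its length. All 17 columns were mapped to mice by their labels. Here, counts were normalized by TMM and fitted in edgeR 4.0.16 (R 4.3.3) with 1 coefficient per genotype, and edgeR's quasi-likelihood test was applied to all 65483 peaks or 18082 gene windows, with p-values adjusted by the Benjamini-Hochberg method and called at 0.01. The study's fold change threshold of 1.5 was an alternative. No peak fell under the minimum of 10 counts over the libraries. Genes came from GENCODE M21, and a promoter peak was the deepest peak within 1 kb of a gene start. In simulated counts for CK against WT (65483 peaks), 103 of 200 peaks changed 1.5-fold and 189 of 200 changed 2-fold were called. Only these 200 were changed in each run, picked above a minimum depth, and all peaks shared the same spread between mice. The shares are therefore not recovery rates for the peaks of these loci. Members, gene lists and tests were chosen with earlier results of these data known, and 4 genes of the lists are not reported here. By rule, all 9 genes, every DAP, up to 4 called genes per list and the 3 most similar promoters were named. For C and WT mice with the same replicate number, deviations from group means correlated at 0.14 to 0.25 in all 4 pairs. These same-numbered mice also shared their class of Y-linked signal, and whether the numbers mark true pairs was not tested. With a replicate block, 213 peaks were called in C against WT in place of 105, and still 0 at the AP-1 factor loci. In the other pairs of genotypes at least 1 correlation was under 0.1.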

Additional observations from a re-analysis of the deposited data

Results flagged for a closer look

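In 80 groups of 4 or 5 mice, 5 values stood apart from the rest of their group by Dixon's criterion at the 95% level, where chance gives about 4. K replicate 1 was high at the Maff promoter peak (91.4 CPM, the others 81.9 to 82.7). WT replicate 3 was low at the Pde4c peak of the Jund window (5.11 CPM, the others 6.28 to 6.42). C replicate 3 was low in the sums of the Junb window (694 CPM, the others 734 to 741) and of the Jund window (585 CPM, the others 610 to 613). C replicate 1 was high in the sum of the Maff window (317 CPM, the others 294 to 296).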

How the results depend on the processing

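In C against WT, in CK against K and in CK against the sum of C and K, the count of 0 DAPs at the AP-1 factor loci held under every alternative run. In K against WT (1 DAP) the count was 2 with DESeq2, 0 with loess offsets, 2 with GC content bins, 0 with only the genotypes compared, 4 at an adjusted p of 0.05 and 0 in gene bodies only, and 0 to 1 when each mouse was left out. Over all peaks 966 were called in the main fit, 1739 with DESeq2, 1147 with GC content bins and 3526 at 0.05. Loess offsets called 1004 of all peaks, and the fit of only the genotypes compared called 741. In CK against WT (2 DAPs) it was 3 with DESeq2, 3 with total counts and 3 with a filter on CPM. Each of these added the exon peak of Pde4c as a loss. The count was 7 with GC content bins, 1 with only the genotypes compared, 4 with Y-linked signal as a covariate, 7 at 0.05, 0 with a fold above 1.5, 4 in windows of 100 kb, 1 in gene bodies, and 0 to 2 when each mouse was left out. Over all peaks 4478 were called in the main fit, 5274 with DESeq2, 4921 with GC content bins and 10082 at 0.05. Total counts called 4532 of all peaks, the filter on CPM 4537 and the Y-linked covariate 5535. With only the genotypes compared 3664 were called, and 2046 with a fold above 1.5. In CK against C (0) the member count was 1 with GC content bins and 1 in 100 kb windows. Over all peaks 1098 were called in the main fit and 942 with GC content bins. In K against C (0) the member count was 2 at 0.05, and 0 to 1 when each mouse was left out, with 1 without K replicate 2, 3 or 4. Over all peaks 516 were called in the main fit, 2371 at 0.05, and 268, 487 and 181 without these 3 mice. Of the gene windows, CK against WT (0) gave 1 with GC content bins, 1 with the Y-linked covariate, 1 at 0.05 and 1 in gene bodies. Over all windows 4919, 2640, 4248 and 1951 were called in these runs.

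A replicate block was also fitted, although only C and WT correlated above 0.1 at every shared number. The counts were 4 in K against WT, 3 in CK against WT, 3 in CK against C and 2 in K against C, and 1 gene window in CK. Over all 65483 peaks the block called 2146, 6607, 2571 and 1411, and 3477 of all 18082 windows in CK. The block with GC content bins gave 5, 12, 3 and 1, and 1 window in K and 3 in CK. Over all peaks it called 2100, 6900, 1827 and 759, and over all windows 2329 in K and 6597 in CK. In CK this was 10.5% of all peaks. The Jund promoter's log2 fold change in CK against WT was -0.22 with GC content bins and -0.21 with the block as well, and the Maff promoter's was -0.19 and -0.20, all called. The cause was not tested. Without the 50 kb flanks 13 peaks were left. The 3 DAPs held means of 48 to 155 fragments per library, against a median of 219 over the member peaks and 85.5 over all peaks. With loess offsets the CK count of 2 kept Batf3, lost the Pde4c start peak and called the exon peak of Pde4c instead, and with the replicate block Batf3 was not called (adjusted p = 0.0100).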
